A study of Arabidopsis thaliana with 4 samples.

Results

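The genes described here are neighbours on Arabidopsis chromosome 4 that encode hybrid proline-rich proteins, and the measured ones did not share a direction: 2 had higher signals in RECA1-overexpressing seedlings, and the probe set shared by another 2 had a lower signal. They were chosen by locus from the platform annotation, which pairs 5 of the 8 listed genes with a probe set, out of 14265 genes paired with one in all. AT4G12490, AT4G12500 and AT4G12530 each have a probe set of their own, with the suffix _at. AT4G12510 and AT4G12520 share 1 probe set, with the suffix _s_at, and their transcripts cannot be told apart here. AZI1 (AT4G12470), EARLI1 (AT4G12480) and AT4G12545 are paired with no probe set in the table used, and they were not analysed here. The list was drawn up with the difference between RECA1-OE and Col-0 already known, so that difference is described for the 5 genes and is given no test.

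Hybrid proline-rich proteins are secreted or membrane-associated proteins of plants. They join a signal peptide and a proline-rich stretch to a domain with a fixed pattern of cysteines, which is shared with the lipid transfer proteins and can hold a hydrophobic ligand. AZI1, the best-known gene of the cluster, is induced by azelaic acid and takes part in the priming of systemic immunity, and its neighbour EARLI1 is known for its response to aluminium and cold.

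RNA was measured on 4 Affymetrix arrays, 1 per sample, from whole seedlings 2 weeks old that had received no treatment. All 4 samples share the listed growth conditions, which are 23 °C, 16 h of light and 8 h of dark, and 4 days of stratification. Wild-type Col-0 plants gave 2 control samples. T3 transgenic plants in the same ecotype that overexpress RECA1 (AT1G79050), here called RECA1-OE, gave the other 2. RECA1 is the chloroplast homologue of the bacterial recombinase RecA. The promoter of the transgene and the number of independent lines are not given in the sources used here. The samples are labelled biological replicates with no word on separate growth or harvest, so the spread between them may be technical. Every SD below measures that spread. Every SE is limma's moderated error, which also draws on the spread of all tested probe sets.

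No probe set was paired with RECA1, so the labels were not checked against the transgene. The deposited values were log2 signals for 22746 probe sets, with a median between 7.58 and 7.63 on each array. The test used the 13647 probe sets whose mean log2 signal over all arrays was at least 6.82. Over the tested probe sets the 2 arrays of Col-0 correlated at r = 0.966 and those of RECA1-OE at 0.980, and arrays of different groups at 0.882 to 0.924 (Pearson, across probe sets, which are not independent). With 4 arrays, all values have limited precision. Probes differ in how strongly they bind, so the place of a probe set among all signals of an array describes the signal and not the amount of transcript. That place is given below for AT4G12490 and AT4G12530.

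AT4G12490 had the largest difference of the cluster. Its log2 signal (probe set 254832_at) was 10.34 and 9.73 in Col-0 replicates 1 and 2, and 13.07 and 12.75 in RECA1-OE replicates 1 and 2. Both RECA1-OE arrays were above both Col-0 arrays, and the gap of 2.41 between the nearest arrays of the groups exceeded the 0.61 between the Col-0 arrays. The means were 10.03 ± 0.43 in Col-0 and 12.91 ± 0.23 in RECA1-OE (SD, n = 2 each), a log2 difference of 2.87 ± 0.22 (SE) or 7.33-fold. Taking the arrays in pairs across the groups, the ratio lay between 5.32-fold and 10.1-fold. On the Col-0 arrays the probe set stood above 88.3% and 82.4% of all probe sets, and on the RECA1-OE arrays above 98.99% and 98.7%. AT4G12490 overlaps the small gene AT4G12495 in the TAIR10.1 annotation, and which of the overlapping transcripts the probes detect was not tested.

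AT4G12500, the next gene of the cluster, was higher in RECA1-OE too, with little spread in either group. Its log2 signal (probe set 254819_at) was 9.17 and 9.23 in Col-0 replicates 1 and 2, and 11.4 and 11.6 in RECA1-OE replicates 1 and 2. The Col-0 arrays lay within 0.054 of each other and the RECA1-OE arrays within 0.21, while 2.18 separated the nearest arrays of the groups. The means were 9.20 ± 0.04 and 11.51 ± 0.15 (SD, n = 2 each), which gives a log2 difference of 2.31 ± 0.15 (SE) or 4.95-fold. Across pairs of arrays the ratio lay between 4.52-fold and 5.43-fold, a narrower range than that of AT4G12490.

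The pair AT4G12510 and AT4G12520, which follow on the chromosome, had a lower signal in RECA1-OE. Their shared probe set (254820_s_at) had a log2 signal of 10.94 and 10.40 in Col-0 replicates 1 and 2, and 9.42 and 9.35 in RECA1-OE replicates 1 and 2. The groups did not overlap, and the nearest arrays were 0.99 apart. The means were 10.67 ± 0.38 and 9.38 ± 0.05 (SD, n = 2 each), so the signal was lower by 2.44-fold, a log2 difference of -1.29 ± 0.20 (SE). The 2 Col-0 arrays differed by 0.53, against 0.07 between the RECA1-OE arrays, and the ratio across pairs of arrays lay between 1.98-fold and 3.01-fold. Whether 1 of the genes or both account for the lower signal cannot be told apart on this probe set. In RNA from whole seedlings, fewer cells of a type that makes a transcript and less transcript per cell cannot be told apart either.

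AT4G12530 was dim, and its groups overlapped. Its log2 signal (probe set 254829_at) was 4.72 and 1.96 in Col-0 replicates 1 and 2, and 4.41 and 5.33 in RECA1-OE replicates 1 and 2. Col-0 replicate 1 lay between the RECA1-OE arrays, and Col-0 replicate 2 lay far below all others. The means of 3.34 ± 1.95 and 4.87 ± 0.65 (SD, n = 2 each) differed by 1.53 on the log2 scale, less than the 2.76 between the Col-0 arrays. Leaving out Col-0 replicate 2 made the difference 0.15, and leaving out Col-0 replicate 1 made it 2.91. On every array at least 73.9% of all probe sets were brighter, and the probe set did not pass the filter on low signals. No direction can be given for AT4G12530 at this signal.

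**Figure D1:**
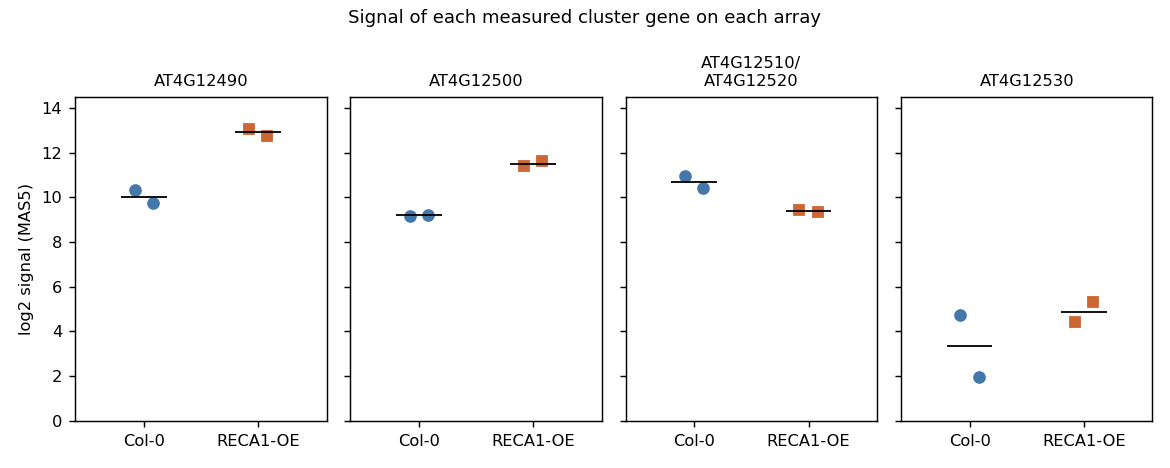
Log2 signal (vertical axis) of each measured gene of the cluster on the 2 Col-0 arrays (circles) and the 2 RECA1-OE arrays (squares), with lines at the group means. AT4G12490 and AT4G12500 are higher on both RECA1-OE arrays, the shared probe set of AT4G12510 and AT4G12520 is lower on both, and the groups overlap for AT4G12530.

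The groups did not overlap for 3 of the 4 probe sets of the cluster, where the share was 55.9% among all 22746 probe sets. Nothing is read from that count, nor from the ranks and shares by size given next, since the genes were chosen with this contrast known. The 3 probe sets that passed the filter would have done so on the mean of either group alone. By size, AT4G12490 ranked 50 and AT4G12500 ranked 129 among the 13647 tested probe sets counted from the largest positive difference, and the shared probe set of AT4G12510 and AT4G12520 ranked 152 counted from the largest negative one. Differences of at least 4-fold upward, which AT4G12490 and AT4G12500 reach, made up 1.38% of the tested probe sets, and differences of at least 2-fold downward 2.85%. The median difference over the 4 probe sets was 1.92. It lies between the differences of AT4G12500 and of the dim AT4G12530, for which no direction can be given. Over all tested probe sets, which leave AT4G12530 out, the median was -0.04. With any 1 array left out, the log2 difference lay between 2.57 and 3.18 for AT4G12490, between 2.20 and 2.41 for AT4G12500 and between -1.55 and -1.02 for AT4G12510 and AT4G12520.

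Of 42 other genes annotated from AT4G12300 to AT4G12700, 13 had a probe set of their own and 8 were bright enough to be tested. Genes outside the cluster were called by limma at a Benjamini-Hochberg adjusted p under 0.05, which 19.9% of all tested probe sets reached, 9.94% higher and 9.97% lower in RECA1-OE. Of the 8 neighbours 1 fell and 7 did not pass, a share near that of all tested probe sets, and at an unadjusted p under 0.05 there were 3 lower and 1 higher. Their differences lay between -0.70 and 0.58, with a median of -0.30. The gene that fell was SKU5 (AT4G12420), which encodes a cell-surface protein of directional root growth. SKU5 had a log2 signal of 11.17 and 11.43 in Col-0 and 10.53 and 10.66 in RECA1-OE, a difference of -0.70 ± 0.16 (SE) with a limma adjusted p of 0.022. It no longer passed without either RECA1-OE array. AT4G12690 had a difference of 0.58 ± 0.20 (SE) and a limma adjusted p of 0.075, and AT4G12700 and AT4G12600 differed by -0.65 ± 0.25 and -0.37 ± 0.15 (SE). AT4G12540, which lies inside the cluster beyond AT4G12530 and was not among the genes chosen, was dim, at 6.08 and 5.72 in Col-0 and 5.18 and 5.69 in RECA1-OE.

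**Figure D2:**
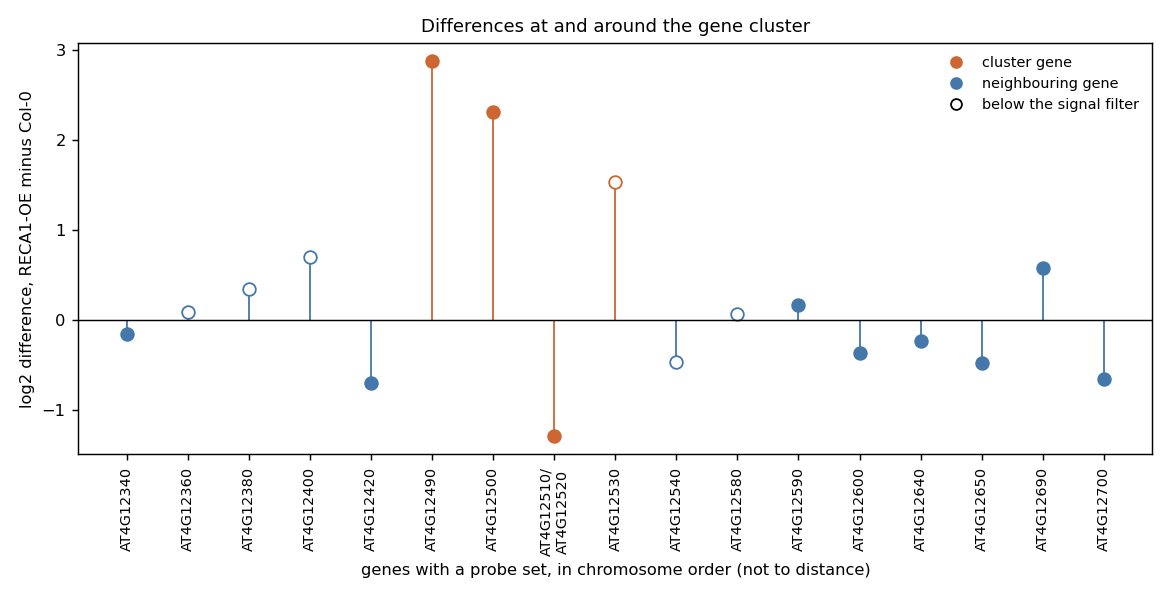
Log2 difference, RECA1-OE minus Col-0 (vertical axis), of each gene with a probe set from AT4G12300 to AT4G12700, in chromosome order and not to distance. Genes of the cluster are orange, other genes blue, and open circles mark probe sets below the filter on low signals; AT4G12490 and AT4G12500 stand at 2.87 and 2.31, next to -1.29 for AT4G12510 and AT4G12520, while the tested neighbours lie between -0.70 and 0.58.

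Hybrid proline-rich genes elsewhere in the genome that have a probe set of their own were called about as often as all tested probe sets. Of 22 listed genes, 8 had a probe set of their own and 6 were tested, of which 1 rose, 0 fell by limma and 5 did not pass. At an unadjusted limma p under 0.05 there were 2 higher and 0 lower. The 1 call among 6 is near the 19.9% of all tested probe sets. Their median difference was 0.01. AT4G22470 rose, from 6.99 and 6.06 in Col-0 to 7.73 and 8.88 in RECA1-OE, a log2 change of 1.78 ± 0.43 (SE), and its limma adjusted p was 0.028. Its Col-0 mean of 6.53 was below the lowest mean tested, so the size is uncertain, and it no longer passed without RECA1-OE replicate 2 or with dim probe sets included. Among the others AT1G62510 had a difference of 0.35 ± 0.15 and AT2G10940 of -0.35 ± 0.18 (SE), and their limma adjusted p values were 0.137 and 0.202. AT1G62500 was at 7.19 and 8.73 on the RECA1-OE arrays, on both sides of its Col-0 mean of 8.67, and its difference of -0.71 ± 0.43 (SE) became 0.05 when RECA1-OE replicate 1 was left out and -1.48 when RECA1-OE replicate 2 was.

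One further pair shares a probe set in the same way as AT4G12510 and AT4G12520, and it was singled out after its values were seen. Its probe set is called lower but is not in the counts above, which take only probe sets of 1 gene. AT5G46890 and AT5G46900, neighbours on chromosome 5 that are on the same list, had a shared log2 signal of 9.97 and 9.88 in Col-0 and 8.60 and 8.62 in RECA1-OE. The signal fell by 1.31 ± 0.15 (log2, SE), which is 2.49-fold, and the limma adjusted p was 0.0022. The 2 shared probe sets thus stood lower by 2.44-fold and 2.49-fold. Whether the difference between these values exceeds their error was not tested.

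Classical lipid transfer proteins and their membrane-anchored relatives carry the same cysteine pattern without the proline-rich stretch. Of 30 listed genes, 8 had a probe set and 5 were tested, of which 1 rose, 0 fell by limma and 4 did not pass, with 2 lower at an unadjusted p under 0.05. The 1 call among 5 is again near 19.9%. The median difference was -0.04. AT2G18370 rose from 9.92 on both Col-0 arrays to 11.07 and 11.05 on the RECA1-OE arrays, a log2 change of 1.14 ± 0.14 (SE) or 2.21-fold, and its limma adjusted p was 0.0028. AT5G01870 and AT2G48130 differed by -0.48 ± 0.15 and -0.62 ± 0.25 (SE), and their limma adjusted p values were 0.066 and 0.122. AT2G44300 differed by 0.31 ± 0.19 (SE). The remaining tested gene, AT5G48490, differed by -0.04 ± 0.15 (SE), and its groups overlapped.

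Listed genes of systemic immunity, the pathway in which AZI1 takes part, were higher where they passed, but few members of the list could be measured. The counts hold for the list as drawn up and not for genes of the pathway that it leaves out. Of 35 listed genes, 4 had a probe set and were tested, of which 3 rose, 0 fell by limma and 1 did not pass, with 0 lower at an unadjusted p under 0.05. The share of all tested probe sets called higher was 9.94%. The median difference was 1.25. AT5G03350 rose from 11.49 and 9.96 in Col-0 to 12.86 and 12.65 in RECA1-OE, a log2 change of 2.02 ± 0.42 (SE), and its limma adjusted p was 0.017. The change was 2.79 when Col-0 replicate 1 was left out and 1.26 when Col-0 replicate 2 was, and it no longer passed without either RECA1-OE array or with dim probe sets included. AT5G52810 rose by 1.28 ± 0.22 and UGT76B1 (AT3G11340), a glycosyltransferase of defence signals, by 1.21 ± 0.16 (SE), and their limma adjusted p values were 0.0085 and 0.0037. The call of AT5G52810 was lost without either RECA1-OE array. SAG101 (AT5G14930), a partner of the immune regulator EDS1, had a difference of 0.86 ± 0.37 (SE) and a limma adjusted p of 0.145. These genes belong to the same contrast in which the cluster was chosen, and some of the values were known when the list was written.

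**Figure D3:**
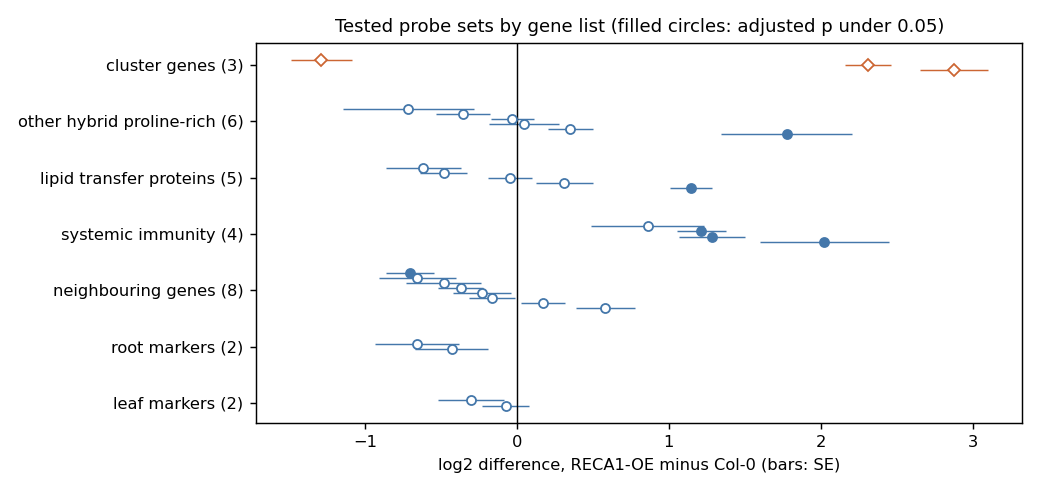
Log2 difference, RECA1-OE minus Col-0 (horizontal axis), of each tested probe set of the cluster (diamonds, shown without a test) and of the listed genes (circles, filled where limma's adjusted p was under 0.05), with bars for the SE and the number tested in parentheses. All 4 tested genes on the systemic immunity list lie above 0, and the other lists spread around or below 0 except for AT4G22470 and AT2G18370.

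Markers of the organs in a seedling were measured too sparsely to follow its makeup. Of 26 root markers 3 had a probe set, and none of the 2 tested passed by limma, with 1 lower at an unadjusted p under 0.05. EXPA18 (AT1G62980), a root-hair expansin, differed by -0.66 ± 0.28 and PYK10 (AT3G09260), a beta-glucosidase of roots, by -0.43 ± 0.24 (SE). The summed linear signal of the 3 root markers was 18247 and 12136 in Col-0 and 9298 and 13121 in RECA1-OE, so the groups overlapped. That sum is nearly all PYK10. EXPA18 and the dim expansin gene EXPA7 (AT1G12560) were each lower on both RECA1-OE arrays than on both Col-0 arrays, at 8.03 and 7.33 against 6.90 and 7.14 for EXPA18 and at 6.82 and 6.98 against 6.70 and 6.68 for EXPA7. Without Col-0 replicate 2 both tested root markers were called lower. Of 22 leaf markers 2 were tested and 0 passed by limma, with 0 at an unadjusted p under 0.05. RCA (AT2G39730), rubisco activase, differed by -0.07 ± 0.15 and FMA (AT3G24140), a regulator of guard cells, by -0.30 ± 0.22 (SE), and the summed linear signal of both leaf markers was 22545 and 23013 in Col-0 and 24316 and 19219 in RECA1-OE. None of 14 floral markers had a probe set in the table used. No listed marker that was measured was at the floor, and the part of organ makeup in the signals of the cluster was not tested.

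For the mean profile of the 3 cluster probe sets above the filter, the nearest genes over the 4 arrays were sought by the root mean square distance between log2 values after each gene's own mean was taken off. Among 7243 candidates the nearest was AT2G26190, at a distance of 0.029, with a log2 difference of 1.32. BIK1 (AT2G39660), a cytoplasmic kinase that acts with immune receptors, followed at 0.043 with a difference of 1.25. AT4G34180, AT1G09740 and AT3G56410 lay at 0.044, 0.052 and 0.053, with differences of 1.38, 1.37 and 1.22. In all 5 both RECA1-OE arrays were above both Col-0 arrays, as in the mean profile that chose them. That profile averages 2 signals that were higher with 1 that was lower, so it is the profile of no single gene of the cluster.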

How the data were processed

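Per the submitters' processing notes, the authors deposited MAS5 values, 1 log2 signal per probe set and array. No version is given. The base and the common scaling of the arrays were read from the values. Per the labels' protocols, 5 µg of RNA per sample was labelled with biotin through an oligo(dT) primer.

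A floor of 1 on the linear scale replaced the 151 to 246 lower values of each array, and the dimmest 40% of probe sets by mean log2 signal, 9099 in number, did not enter the test. The groups were compared with limma 3.58.1 in R 4.3.3 (lmFit and trended eBayes, two-sided, adjusted over the 13647 tested probe sets), which leaves 2 residual degrees of freedom. SE are limma's moderated errors, in which the trend over all tested probe sets enters with 5.42 prior degrees of freedom. The fit was tested on simulated data. The platform annotation pairs 13513 probe sets with 1 gene each, 503 with more than 1 and leaves 8730 unnamed, and 13436 of the first matched a TAIR10.1 locus by Entrez ID. Gene coordinates were used only for the order and the overlaps of genes, and protein and promoter sequences were not analysed here.

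The members and the 7 gene lists were chosen with earlier results of these data known. The genes named are all members, up to 4 per list (called genes by size, then by unadjusted p), and the 5 genes nearest to the mean profile. AT4G12540 was named for its place, EXPA7 as the remaining measured root marker and AT5G48490 as the remaining tested lipid transfer gene. The pair AT5G46890 and AT5G46900 and the nearest profiles of single members were named after their values were seen. For each gene the probe set with the highest mean signal was used. The alternatives were a replicate block, quantile normalization, median centring, no filter or a 60% filter, an offset of 16 on the linear scale, eBayes without a trend, and leaving out each array.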

Additional observations from a re-analysis of the deposited data

How the results depend on the processing

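Quantile normalization, median centring and adding 16 before log2 moved the log2 differences of AT4G12490 to between 2.85 and 2.90, of AT4G12500 to between 2.28 and 2.32 and of AT4G12510/AT4G12520 to between -1.32 and -1.27. Leaving out 1 of 2 arrays cannot turn a difference between groups that do not overlap, so it says nothing about the stability of their direction. The median over the 4 probe sets of the cluster, 1.92, was 1.47 when 16 was added before log2 and lay between 1.24 and 2.60 with 1 array left out, because the dim AT4G12530 enters it. The 2716 calls were 1787 without the filter and lay between 746 and 3906 with 1 array left out. The 1 rise among other hybrid proline-rich genes, AT4G22470, became 0 without the filter. It also became 0 with a 60% filter, which left AT4G22470 out of the test. With 1 array left out, the rises on that list lay between 0 and 1 and the falls between 0 and 2, the falls among lipid transfer genes between 0 and 1, the rises of systemic immunity between 1 and 4, the falls of root markers between 0 and 2 and those of neighbouring genes between 0 and 2. The cause was not tested, except that fits without 1 array rest on 3 arrays, and a lone array is assumed to vary like the other group. With the replicate number as a block 2390 probe sets were called. The deviations of same-numbered arrays had r = -0.064, so the numbers were not taken to pair the samples, and the block changed no call of a tested gene on the lists. Signal over background could not be judged without detection calls.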

Other observations

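Each cluster gene above the filter was also set beside its own nearest profiles over the 4 arrays, a step added after the values were seen and given as a description. Nearest to AT4G12490 were AT1G72060, at a root mean square distance of 0.094 and with a log2 difference of 2.80, AT1G51890 and AT1G05340. Nearest to AT4G12500 was YLS5 (AT2G38860), known from yellowing leaves, which stood at 9.56 and 9.72 in Col-0 and at 11.70 and 12.03 in RECA1-OE, a difference of 2.23. AT1G80130 and AT3G54150 came next. Nearest to the shared probe set of AT4G12510 and AT4G12520 was UGT71C1 (AT2G29750), a glycosyltransferase gene, at a distance of 0.048 and with a difference of -1.25, followed by AT3G45710 and AT4G24790. The differences of these nearest genes follow from how they were chosen. No gene was among the nearest 3 of more than 1 of these probe sets. Little can be read from that, because the distance depends on the size and sign of the difference.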
